A study of Mus musculus with 9 samples.

Results

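Liver macrophages sorted after 7 weeks of CDA-HFD, a fatty diet without choline, with amino acids in place of protein, that produces steatohepatitis, were compared with liver macrophages of mice fed a normal diet (ND). The comparison used 6 of the 9 RNA-seq libraries of the series, 3 at 7 weeks and 3 in ND; the other 3 libraries came from mice fed CDA-HFD for 10 weeks and entered the filter on low values, the shared estimate of the spread, the values given side by side at the end and a test of 10 against 7 weeks. All mice were wild type, and by the study's methods they were C57BL/6J, male and young adults at the start of the diet. Cells were sorted as Ly6C-low F4/80+ and each library is described as an individual animal, so a group is a sorted gate and not a single cell type. Of the 24312 genes in the deposited table, 11783 had 1 FPKM (fragments counted relative to transcript length and library size) or more in 3 or more of the 9 libraries and were tested. A gene was called when its two-sided limma test of the log2(FPKM + 1) values gave a Benjamini-Hochberg adjusted p below 0.05.

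Kupffer cells are the resident macrophages of the liver sinusoids. They are seeded before birth, renew themselves, clear particles, complement-coated microbes, aged red cells and iron from portal blood, and are recognised by Tim4, Clec4f and Vsig4. In steatohepatitis many of them die, and monocytes from blood fill the niche, where some become lipid-associated or scar-associated macrophages marked by Trem2, Cd9, Gpnmb and osteopontin. Because each sorted population was measured in bulk, fewer cells of a type and less RNA per cell cannot be told apart in any value below.

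The sort held macrophages in both groups. Cd68, Lyz2 and Csf1r, the receptor for the macrophage growth factor, were named to check the label. Cd68 had 312, 298 and 302 FPKM at 7 weeks, against 286, 298 and 313 FPKM in ND. Lyz2 had 374, 369 and 363 FPKM at 7 weeks, against 347, 364 and 369 FPKM in ND. Csf1r had 233, 231 and 230.4 FPKM at 7 weeks, against 274, 288 and 288 FPKM in ND. The groups overlapped for Cd68 and Lyz2, and Csf1r was lower in every 7-week library. Adgre1, which encodes the F4/80 antigen of the gate, had 197, 197 and 197 FPKM at 7 weeks, against 252, 265 and 257 FPKM in ND, with every 7-week library below every ND library (log2 fold change −0.39, 95% interval −0.46 to −0.32, adjusted p = 1.50e-06). By a depth estimated from the steps between low values, the libraries held 5435000 to 5620000 reads at 7 weeks and 5410000 to 5810000 in ND, and between 10990 and 11186 genes at 7 weeks and 11071 and 11273 genes in ND reached 1 FPKM. If removal of duplicate single-end reads capped long genes, as the depth estimate implies, the cap lay at 356 to 368 FPKM at 7 weeks and at 344 to 370 FPKM in ND, and fold changes of abundant genes are understated. This cap is called the upper limit below. Lyz2 lay near it in both groups, so the overlap of its groups does not show equal levels. Gapdh, which every cell uses, was listed at 0.697 to 1.18 FPKM in ND, so an exact 0 is given only as listed at 0.

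A large share of the transcriptome differed at 7 weeks. Of the 11783 genes, 5150 were called (43.7%), 2508 higher (21.3%) and 2642 lower (22.4%), and 6457 had no overlap between the 3 libraries of each group (54.8%). With a change of at least 2-fold, 833 genes rose (7.07%) and 1120 fell (9.51%). The largest changes were more often rises: 73 genes rose and 25 fell by 4 or more on the log2 scale. The genes called higher took 38.5% to 39.5% of all FPKM at 7 weeks and 27.1% to 27.5% in ND, and those called lower took 17.6% to 17.9% at 7 weeks and 28.7% to 29.0% in ND. The median over all genes tested was −0.03, and it lay between −0.04 and −0.00 under every other setting of the processing. Calls moved with level and with transcript length. Among the 1181 genes at 100 FPKM or more, 44.0% rose and 21.3% fell, and among the 1251 genes with transcripts under 1 kb, 34.5% rose and 15.0% fell, against 15.2% and 22.3% of 2572 genes of 4 kb or more; the part of length and level in the calls was not tested. A pseudocount of 5 left 1029 genes with a called change of at least 2-fold in place of 1953.

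**Figure D1:**
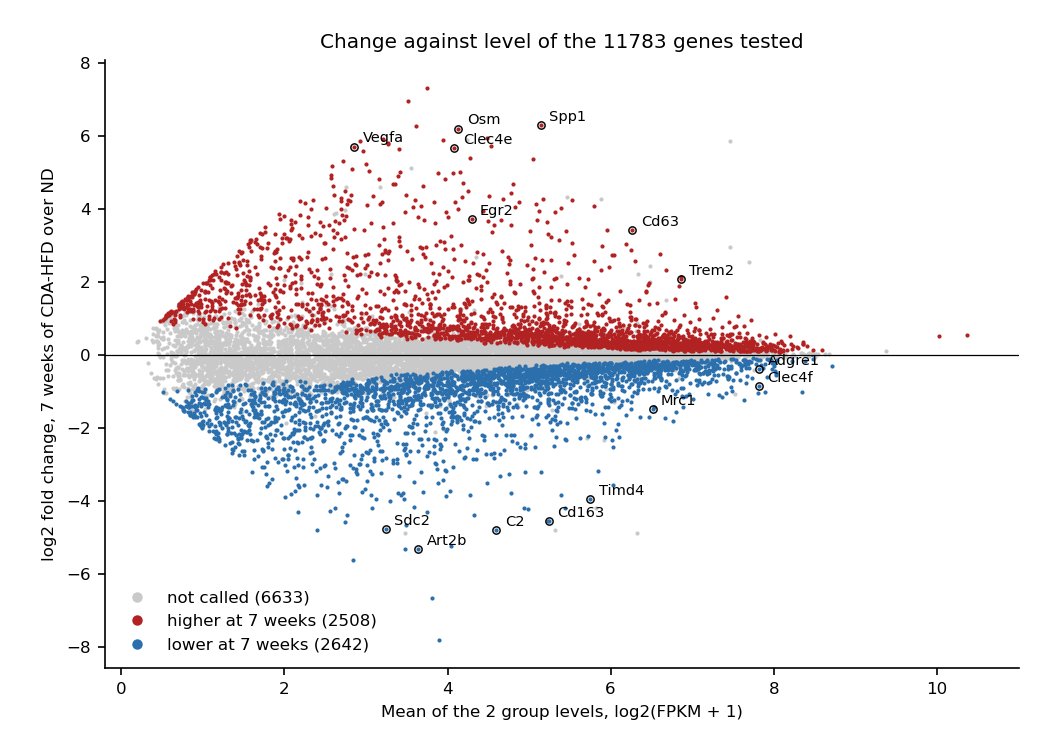
Each point is 1 of the 11783 genes tested, with the mean of its group levels in log2(FPKM + 1) across and its log2 fold change, 7 weeks of CDA-HFD over ND, up. Red points are the 2508 genes called higher, blue points the 2642 called lower and grey points the rest, and circled genes are named. The widest changes sit at low and middle levels, and folds narrow toward the right, where the upper limit on FPKM would lie. Points beyond the named genes include snoRNA and microRNA models, which the rule for named genes leaves out.

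The member counts of the gene lists are read against the shares over all genes, 21.3% higher and 22.4% lower, and a share near these is no result about a list. Many lists held 1 or 2 members that passed the filter only through 1 group, and such members had to differ. The genes that define resident Kupffer cells fell. Of 20 tested members of the Kupffer identity list, 20 were called lower and 0 higher, with a median of −1.33 against −0.03 over all genes, and their summed level was 1644 to 2039.7 FPKM at 7 weeks and 4047 to 4235 FPKM in ND. Timd4, the phosphatidylserine receptor Tim4 of resident cells, had 14.6, 6.53 and 18.5 FPKM at 7 weeks, against 200.2, 207 and 202 FPKM in ND (log2 fold change −3.95, 95% interval −4.91 to −2.99, adjusted p = 9.54e-05). Cd163, the receptor that takes up hemoglobin bound to haptoglobin, had 5.36, 4.06 and 12.04 FPKM at 7 weeks, against 173, 184 and 168 FPKM in ND (log2 fold change −4.55, 95% interval −5.62 to −3.49, adjusted p = 5.98e-05). In both genes all 7-week libraries were far below all ND libraries, and 7w 3 was the highest of its group. The fall was not of 1 size: Clec4f, a galactose-binding lectin found on Kupffer cells, had 169, 146 and 186 FPKM at 7 weeks, against 292, 303 and 307 FPKM in ND (log2 fold change −0.85, 95% interval −1.03 to −0.67, adjusted p = 2.14e-05). Vsig4, the receptor for complement fragment C3b, had 165, 129 and 174 FPKM at 7 weeks, against 307, 329 and 322 FPKM in ND (log2 fold change −1.04). Both are abundant. Corrected for the estimated upper limit, their log2 fold changes were −1.53 and −1.94, against −4.48 for Timd4.

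Complement genes of liver macrophages fell with the Kupffer cell genes. Of 13 tested complement components, 9 fell and 1 rose, with a median of −1.19. C2, a protease of the classical pathway, had 2.16, 0.642 and 10.4 FPKM at 7 weeks, against 104, 115 and 103 FPKM in ND (log2 fold change −4.79, 95% interval −6.24 to −3.35, adjusted p = 0.000308). C4b, which encodes the C4 protein cleaved beside it, had 6.07, 6.68 and 5.83 FPKM at 7 weeks, against 130.2, 127 and 129.8 FPKM in ND (log2 fold change −4.18). C4b was even within each group, whereas C2 was highest in 7w 3 among the 7-week libraries, and neither gene overlapped between groups. C3, the central component, was the member that rose, with 67.2, 125 and 72.2 FPKM at 7 weeks, against 45.1, 41.7 and 29.1 FPKM in ND and its highest value in 7w 2 (log2 fold change 1.14, 95% interval 0.57 to 1.70, adjusted p = 0.00616). C1qb, a chain of the recognition molecule C1q, had 372, 350.4 and 348 FPKM at 7 weeks, against 355, 373 and 382 FPKM in ND, near the upper limit, and was not called. Among 12 complement receptors and regulators, 5 rose and 4 fell. Cd93, first described as a C1q receptor, had 63.8, 68.3 and 58.3 FPKM at 7 weeks, against 1.53, 1.399 and 1.96 FPKM in ND (log2 fold change 4.62). Cd55, which speeds the decay of complement convertases, had 6.82, 2.77 and 3.63 FPKM at 7 weeks, against 36.1, 73.9 and 19.3 FPKM in ND (log2 fold change −2.90). The liver makes most complement protein in hepatocytes, and the hepatocyte markers were also lower at 7 weeks (493 to 563 FPKM at 7 weeks and 631 to 1038 FPKM in ND summed); their part in the complement values was not tested.

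Most genes of the lipid- and scar-associated macrophage list rose. Of 23 tested members of that list, 18 were called higher and 2 lower, with a median of 1.01, and their summed level was 4783 to 5054 FPKM at 7 weeks and 2408 to 2537 FPKM in ND. Corrected for the estimated upper limit, the median was 1.71, with 19 members higher and 3 lower. Spp1 (chr5:104435118-104441050 on the plus strand, GRCm38) encodes osteopontin, a secreted matrix and cytokine protein, and had 286, 263 and 260.1 FPKM at 7 weeks, against 1.26, 8.65 and 0.8996 FPKM in ND (log2 fold change 6.29, 95% interval 4.84 to 7.74, adjusted p = 0.000263). Gpnmb, a membrane glycoprotein of lipid-loaded macrophages, had 173, 162 and 153 FPKM at 7 weeks, against 0.473, 4.21 and 1.42 FPKM in ND (log2 fold change 5.95, 95% interval 5.04 to 6.86, adjusted p = 1.21e-05). In both genes the 3 libraries at 7 weeks lay close together, and the ND libraries were low, with ND 2 the highest. Cd63, a tetraspanin of late endosomes, had 258, 250.4 and 246 FPKM at 7 weeks, against 22.2, 21.7 and 23.3 FPKM in ND (log2 fold change 3.43). Cd9, a tetraspanin of the cell surface, had 263, 248 and 246 FPKM at 7 weeks, against 34.3, 39.9 and 35.5 FPKM in ND (log2 fold change 2.76). Trem2, the lipid-sensing receptor that signals through Tyrobp, had 243, 229 and 230.0 FPKM at 7 weeks, against 59.8, 37.5 and 72.1 FPKM in ND (log2 fold change 2.08, 95% interval 1.57 to 2.60, adjusted p = 0.000287), and its ND level was the highest of these 5 genes. The members that fell were Ctsl, a lysosomal protease (log2 fold change −0.20), and Axl, a receptor for apoptotic cells (log2 fold change −0.19).

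**Figure D2:**
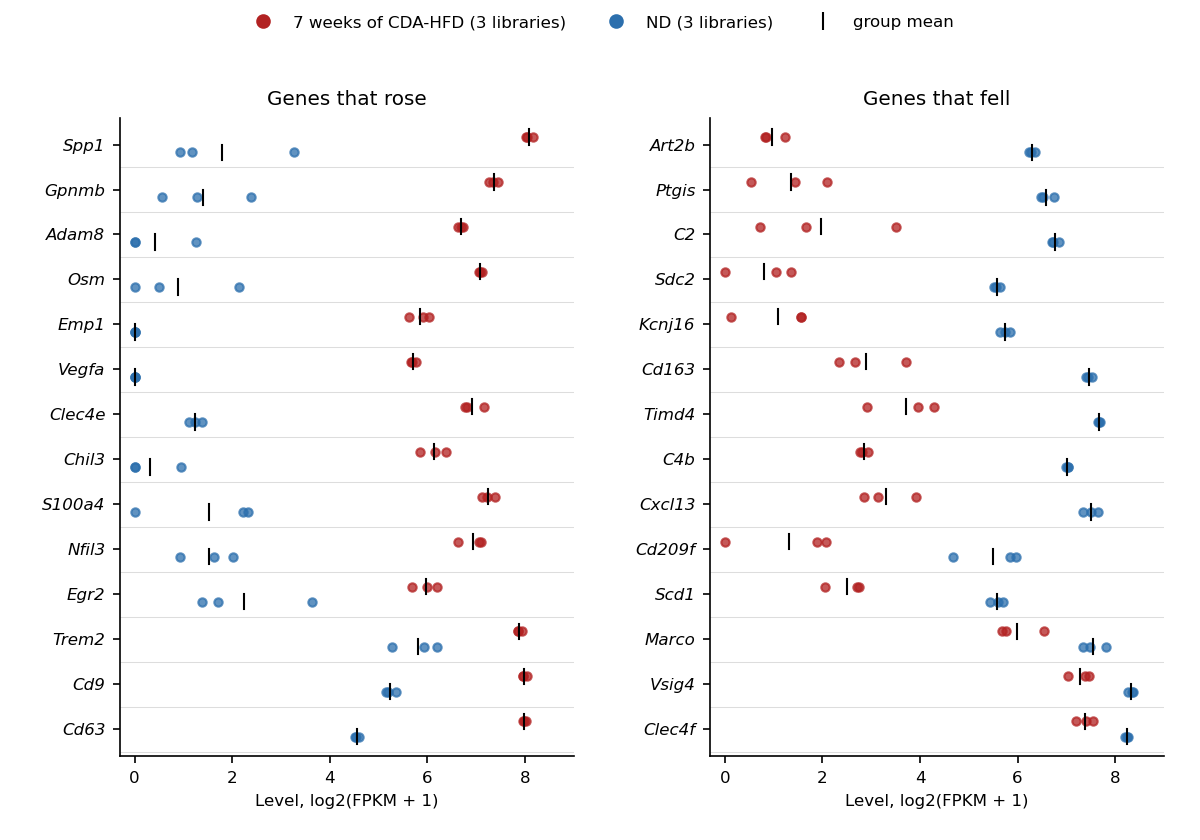
Levels of genes that rose (left) and that fell (right), in log2(FPKM + 1), with 1 point per library, red for 7 weeks of CDA-HFD and blue for ND, and a black bar at each group mean of 3 libraries. No gene drawn has overlapping groups. Points at 0 are libraries in which the gene is listed at 0, as for Emp1 and Vegfa in ND.

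Starts of genes that rose are shown because they carry short motifs that macrophage transcription factors are known to bind. The sequences are the 250 bases before each start in RefSeq (GRCm38.p6, plus strand), and 9446 of the 11783 genes tested (80.2%) had a start there. Capitals mark the AP-1 element TGANTCA, which is its own reverse complement, in the first 3 and the PU.1 element GAGGAAGT, searched on both strands, in the last. Trem2 lies downstream of chr17:48346151-48346400, Itgax, the Cd11c integrin chain, of chr7:128129300-128129549, Emp1, an epithelial membrane protein, of chr6:135362681-135362930 and Spp1 of chr5:104434861-104435110.
Trem2: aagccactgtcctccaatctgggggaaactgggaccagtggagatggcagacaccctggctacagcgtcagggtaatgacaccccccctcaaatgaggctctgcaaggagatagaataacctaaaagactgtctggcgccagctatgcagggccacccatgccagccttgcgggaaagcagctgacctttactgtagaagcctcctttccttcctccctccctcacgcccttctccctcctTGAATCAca
Itgax: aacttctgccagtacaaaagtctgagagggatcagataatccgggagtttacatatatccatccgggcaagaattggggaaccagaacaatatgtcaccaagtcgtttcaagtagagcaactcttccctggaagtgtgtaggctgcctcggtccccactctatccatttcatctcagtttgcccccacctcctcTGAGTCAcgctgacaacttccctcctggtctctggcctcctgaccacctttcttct
Emp1: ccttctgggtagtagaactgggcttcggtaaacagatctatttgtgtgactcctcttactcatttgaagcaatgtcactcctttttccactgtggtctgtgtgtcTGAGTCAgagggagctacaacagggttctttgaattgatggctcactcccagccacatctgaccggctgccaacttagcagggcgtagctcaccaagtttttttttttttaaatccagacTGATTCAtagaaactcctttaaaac
Spp1: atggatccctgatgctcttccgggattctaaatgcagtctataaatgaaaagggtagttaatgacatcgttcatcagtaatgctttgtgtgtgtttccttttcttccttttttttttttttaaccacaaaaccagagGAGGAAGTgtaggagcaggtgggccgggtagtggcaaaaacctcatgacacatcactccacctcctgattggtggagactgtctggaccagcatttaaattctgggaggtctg
TGANTCA was in 6.87% of 27025 RefSeq starts and in 4.52% of those of the genes tested, and GAGGAAGT was in 2.74% of those of the genes tested. Among the 69 genes with a start on the list headed hLAM in the study's file, 10 held TGANTCA (14.5%). On other lists it was in 3 of 17 antioxidant genes (17.6%), 22 of 423 genes headed moKC (5.2%) and 0 of 18 immediate early genes. The Egr element GCGTGGGCG was in 0 of the 69 and in 1.12% of starts of the genes tested. Of 10 motifs searched TGANTCA and GAGGAAGT were chosen for printing here after the values were seen. A match is a description, not a binding site or a cause.

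The 12 largest rises included secreted proteins, surface proteins and enzymes. Adam8 (chr7:139978932-139992562 on the minus strand), a metalloprotease that sheds surface proteins, had 106, 97.9 and 103 FPKM at 7 weeks, against 0, 0 and 1.38 FPKM in ND (log2 fold change 6.27, 95% interval 5.67 to 6.87, adjusted p = 1.30e-08). Osm, the cytokine oncostatin M, had 134, 132 and 137 FPKM at 7 weeks, against 3.39, 0.423 and 0 FPKM in ND (log2 fold change 6.20, 95% interval 5.07 to 7.34, adjusted p = 3.77e-05). In each gene the 3 libraries at 7 weeks lay close together and those of ND were under 4 FPKM. Dusp5, a phosphatase that acts on ERK, had 63.6, 64.2 and 85.3 FPKM at 7 weeks, against 0, 0.189 and 0.384 FPKM in ND (log2 fold change 5.92). Kcnn4, a calcium-activated potassium channel, had 119, 115 and 112 FPKM at 7 weeks, against 0.388, 0.926 and 1.78 FPKM in ND (log2 fold change 5.90). Emp1 had 64.1, 48.2 and 58.97 FPKM at 7 weeks, and ND libraries all listed it at 0. The growth factor of vessels, Vegfa, had 50.6, 49.6 and 53.7 FPKM at 7 weeks, and ND libraries all listed it at 0. No fold is given for Emp1 and Vegfa, since their ND values are 0. Dusp5, Emp1 and Vegfa reached 1 FPKM in every 7-week library and in no ND library, so no support is drawn from their calls. Also in this group were Chil3, a chitinase-like lectin (69.5 FPKM at 7 weeks and 0.314 FPKM in ND), S100a4, a calcium-binding protein (151 FPKM at 7 weeks and 2.55 FPKM in ND), and Clec4e, the receptor Mincle for microbial glycolipids and dead cells (120.1 FPKM at 7 weeks and 1.37 FPKM in ND).

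The 12 largest falls included Cd163 and C2, given above, and enzymes, transporters and a proteoglycan. Art2b (chr7:101576970-101585600 on the minus strand), an ADP-ribosyltransferase of the cell surface, had 1.36, 0.783 and 0.791 FPKM at 7 weeks, against 80.96, 74.2 and 76.9 FPKM in ND (log2 fold change −5.32, 95% interval −5.79 to −4.85, adjusted p = 3.25e-09). Ptgis, prostacyclin synthase, had 3.29, 0.4500 and 1.704 FPKM at 7 weeks, against 106, 88.4 and 91.3 FPKM in ND (log2 fold change −5.23, 95% interval −5.95 to −4.50, adjusted p = 1.61e-07). Sdc2, a heparan sulfate proteoglycan, had 1.58, 0 and 1.07 FPKM at 7 weeks, against 44.8, 46.02 and 49.05 FPKM in ND (log2 fold change −4.77). The ND libraries of these genes were within a narrow range and every 7-week library was under 4 FPKM. Kcnj16, an inwardly rectifying potassium channel, averaged 1.34 FPKM at 7 weeks and 52.6 FPKM in ND, Slc1a2, a glutamate transporter, 2.14 FPKM at 7 weeks and 56.6 FPKM in ND, and Qprt, an enzyme of NAD synthesis from tryptophan, 0.532 FPKM at 7 weeks and 29.4 FPKM in ND. Gbp2b, an interferon-inducible GTPase, averaged 7.12 FPKM at 7 weeks and 171 FPKM in ND, Snrpn, a splicing protein from an imprinted locus, 0.393 FPKM at 7 weeks and 31.3 FPKM in ND, and Lysmd2 0.352 FPKM at 7 weeks and 24.8 FPKM in ND. Mup3, a major urinary protein made by hepatocytes, averaged 3.46 FPKM at 7 weeks and 89.01 FPKM in ND and spread between 55.6 and 112 FPKM in ND.

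Of 30 transcription factors of macrophages, 17 rose and 7 fell, with a median of 0.58, and the share that fell was near the 22.4% of all genes. Without trend and robust settings 4 fell, and 2 of the 30 passed the filter only through 1 group. Nfil3, a bZIP repressor, had 98.2, 132 and 136 FPKM at 7 weeks, against 2.09, 0.906 and 3.06 FPKM in ND (log2 fold change 5.40, 95% interval 4.79 to 6.01, adjusted p = 1.60e-07). Egr2, a zinc finger factor, had 50.6, 62.99 and 72.7 FPKM at 7 weeks, against 1.599, 2.28 and 11.4 FPKM in ND (log2 fold change 3.72), with ND 3 well above the other ND libraries. The largest falls were Rxra, the partner of many nuclear receptors, with 24.2, 27.3 and 30.3 FPKM at 7 weeks, against 77.97, 71.5 and 83.8 FPKM in ND (log2 fold change −1.48, 95% interval −1.88 to −1.08, adjusted p = 4.79e-05), and Tfec, a relative of the lysosomal regulator Tfeb, with 32.3, 32.3 and 33.8 FPKM at 7 weeks, against 53.5, 61.3 and 53.3 FPKM in ND (log2 fold change −0.75). Immediate early genes, which also respond to tissue dissociation, rose in 18 of 22 cases and fell in 0, and their summed level was 2769.6 to 3116 FPKM at 7 weeks and 1459 to 1864 FPKM in ND; their part in the rise of the factors was not tested. Egr2, Atf3 and Nr4a1 stand on the list of transcription factors and also on that of immediate early genes. Fosb, an AP-1 subunit, had 50.7, 43.7 and 60.4 FPKM at 7 weeks, against 1.81, 2.57 and 1.89 FPKM in ND (log2 fold change 4.09). Of 18 genes of TGF-beta, BMP and Notch signalling, 4 rose and 3 fell. Dtx4, a regulator of Notch, rose (log2 fold change 1.89) as did the TGF-beta receptor Tgfbr1 (log2 fold change 1.02), while the BMP receptors Bmpr1a (log2 fold change −2.60) and Acvrl1 (log2 fold change −0.79) fell.

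Macrophage gene lists used by the study separated widely. They were chosen here with results of these data known, so their directions are not independent evidence. The study's text gives the sizes of its hLAM and moKC lists the other way round from its file, and the names here are the file's headings. In the file the list headed hLAM held Spp1 and Fabp5, and the list headed moKC held Clec4f and Cd5l. Of 85 tested hLAM genes (hepatic lipid-associated macrophages) 84 rose and 0 fell, with a median of 2.87, and 9 of the 85 passed the filter only through 1 group. Of 45 SAM genes (scar-associated macrophages) 34 rose and 2 fell, with a median of 0.44. Of 118 KC genes (Kupffer cells) 4 rose and 88 fell, with a median of −0.39. Of 519 moKC genes (monocyte-derived Kupffer cells) 6 rose and 405 fell, with a median of −0.57. The summed level of the hLAM list was 10044 to 10773 FPKM at 7 weeks and 3149 to 3198 FPKM in ND.

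**Figure D3:**
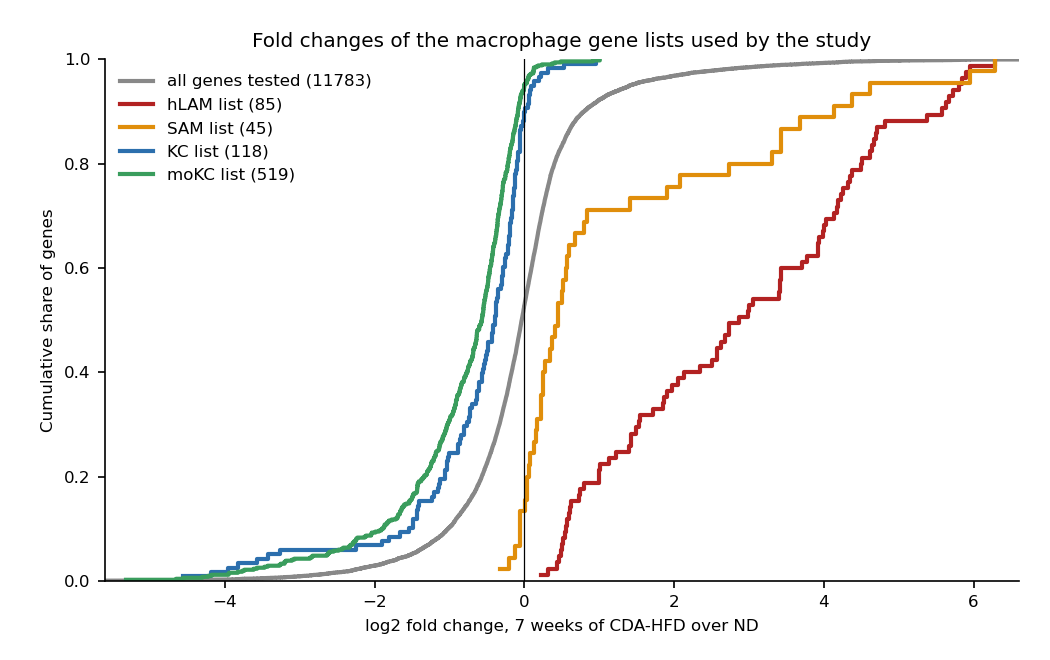
Cumulative share of genes (vertical axis) at or below each log2 fold change, 7 weeks of CDA-HFD over ND (horizontal axis), for all 11783 genes tested and the 4 macrophage lists, under the headings of the study's file. The hLAM curve lies to the right, with a median of 2.87, and the KC and moKC curves lie left of all genes.

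Chemokines rose more often than they fell. Of 23 tested, 13 rose and 3 fell, with a median of 1.04, and their summed level was 2249 to 2473 FPKM at 7 weeks and 1290.0 to 1513 FPKM in ND. Cxcl1, which attracts neutrophils, had 110.2, 76.8 and 149.9 FPKM at 7 weeks, against 2.96, 5.79 and 5.63 FPKM in ND (log2 fold change 4.28, 95% interval 3.57 to 4.99, adjusted p = 4.71e-06), and Cxcl3 of the same kind had 34.4, 39.7 and 31.5 FPKM at 7 weeks, and ND libraries all listed it at 0. Cxcl13, which attracts B cells, had 14.2, 7.81 and 6.24 FPKM at 7 weeks, against 179.6, 199 and 162 FPKM in ND (log2 fold change −4.19, 95% interval −5.90 to −2.48, adjusted p = 0.00305). Ccl17, a ligand of Ccr4, had 3.51, 1.12 and 1.13 FPKM at 7 weeks, against 22.9, 28.3 and 7.63 FPKM in ND (log2 fold change −2.74). Cxcl1 was uneven at 7 weeks, with 7w 3 the highest. The immediate early sum was also higher at 7 weeks, and its part in the chemokine values was not tested. Of 11 chemokine receptors 6 rose and 2 fell. Cxcr4, the receptor of Cxcl12, had 59.6, 53.1 and 63.3 FPKM at 7 weeks, against 3.48, 2.35 and 1.36 FPKM in ND (log2 fold change 4.18). Ccr1 had 84.4, 84.03 and 76.1 FPKM at 7 weeks, against 3.17, 3.56 and 7.16 FPKM in ND (log2 fold change 3.94). Cxcr3, a receptor of interferon-induced chemokines, fell (log2 fold change −0.80).

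Of 19 tested cytokines, 7 rose and 4 fell, with a median of −0.07. Tnf had 51.5, 53.7 and 95.8 FPKM at 7 weeks, against 9.37, 7.95 and 12.6 FPKM in ND (log2 fold change 2.59, 95% interval 1.99 to 3.20, adjusted p = 3.28e-05), and 7w 3 was the highest. Tnfsf9, the ligand of the costimulatory receptor 4-1BB, had 30.5, 26.8 and 54.6 FPKM at 7 weeks, against 0.165, 0.876 and 1.601 FPKM in ND (log2 fold change 4.35). Il16 (log2 fold change −0.75) and Tnfsf13, the B cell factor APRIL (log2 fold change −0.74), fell. Il6 had 10.7, 7.09 and 23.1 FPKM at 7 weeks, against 19.4, 9.98 and 42.1 FPKM in ND, and Il4 had 2.27, 0 and 0 FPKM at 7 weeks, against 0, 3.14 and 0 FPKM in ND; both overlapped between groups and neither was called, and Il13 was listed at 0 in every library. Of 12 growth factors for vessels, stroma and epithelium, 5 rose and 2 fell, 4 fell without 7w 3, and 2 passed the filter only through 1 group. Beside Vegfa, Plau, the urokinase protease, rose (log2 fold change 1.75). Pdgfc, a growth factor of fibroblasts, had 4.78, 5.63 and 10.7 FPKM at 7 weeks, against 32.7, 24.9 and 34.6 FPKM in ND (log2 fold change −2.04). Grn, the progranulin precursor, had a log2 fold change of −0.16 on a level of 236 FPKM at 7 weeks and 264 FPKM in ND, close to the upper limit.

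Matrix and matrix-remodelling genes had the highest median of the 40 pathway lists at 2.50, with 16 of 21 tested higher and 1 lower, and 2 passing the filter only through 1 group. Their summed level was 1599.7 to 1621 FPKM at 7 weeks and 503 to 529 FPKM in ND. Spp1 and Adam8, given above, are members, and both rose. Under several alternatives 2 members fell, among them quantile normalization, a pseudocount of 5 and the model of the 6 libraries compared. Leaving out 7w 3, 10w 1 or 10w 2 also gave 2 in place of 1. Mmp9, the gelatinase, was the member that fell, with 6.13, 1.76 and 5.27 FPKM at 7 weeks, against 58.04, 32.3 and 42.9 FPKM in ND (log2 fold change −3.15, 95% interval −4.62 to −1.68, adjusted p = 0.00455). Of 7 tested fibroblast and stellate markers, 4 rose and 2 fell, with a median of 1.26 and a summed level of 114 to 142 FPKM at 7 weeks and 139.7 to 148 FPKM in ND. The list has 14 members. With the filter over the 6 libraries compared 2 rose, and with a filter of 5 FPKM 1 rose and 1 fell. Dcn, the small proteoglycan decorin, had 15.3, 10.9 and 12.2 FPKM at 7 weeks, against 0.961, 1.82 and 3.799 FPKM in ND. Pdgfrb, a growth factor receptor of stellate cells, and Ecm1, a matrix protein, fell (log2 fold changes −1.55 and −0.41). The part of these cells in the matrix values was not tested.

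Of 21 C-type lectins, 8 rose and 7 fell: Clec4d, the partner of Mincle, had 123, 128 and 109.6 FPKM at 7 weeks, against 5.25, 9.37 and 3.55 FPKM in ND (log2 fold change 4.18), while Cd209f, of the DC-SIGN family, had 3.21, 0 and 2.72 FPKM at 7 weeks, against 56.6, 24.4 and 61.7 FPKM in ND (log2 fold change −4.17) and Cd209b was listed at 0 in all 3 libraries at 7 weeks, against 16.97, 5.88 and 10.8 FPKM in ND. Of 14 Fc receptors and Trem genes, 5 rose and 5 fell. Fcgr2b, the inhibitory receptor for IgG, had 210.3, 214 and 188 FPKM at 7 weeks, against 27.5, 25.4 and 28.1 FPKM in ND (log2 fold change 2.87, 95% interval 2.74 to 3.00, adjusted p = 8.44e-12). Trem1, an amplifier of inflammation, had 22.6, 24.4 and 22.9 FPKM at 7 weeks, against 1.32, 0.447 and 0.453 FPKM in ND (log2 fold change 3.84). Fcgrt, the recycling receptor for IgG, had a log2 fold change of −0.68, and the signalling adaptor Hcst one of −0.49. Tyrobp, the adaptor of Trem2, had 408, 393 and 392 FPKM at 7 weeks, against 377, 396 and 401 FPKM in ND, above the upper limit of long genes, and was not called. Of 22 Toll-like receptor and inflammasome genes, 5 rose and 6 fell, shares near those of all genes, with Tlr1 (log2 fold change 0.80) and Tlr13 (log2 fold change 0.62) higher and Tlr3, the sensor of double-stranded RNA (log2 fold change −1.46), and Naip5, the sensor of flagellin (log2 fold change −0.95), lower.

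Receptors that clear lipoproteins and dead cells fell more often than they rose. Of 15 scavenger and endocytic receptors, 9 fell and 4 rose, with a median of −0.49, and of 16 efferocytosis genes, 9 fell and 2 rose, with a median of −0.23. The 4 rises became 2 without 7w 2, 7w 3, ND 1 or ND 3 and 1 without trend and robust settings. The 2 efferocytosis rises became 1 without 7w 1. Stab2, a hyaluronan receptor of sinusoidal endothelium, had 8.74, 3.56 and 7.43 FPKM at 7 weeks, against 53.6, 49.5 and 49.03 FPKM in ND (log2 fold change −2.84, 95% interval −3.67 to −2.01, adjusted p = 0.000121). Its relative Stab1 had 61.3, 53.7 and 57.99 FPKM at 7 weeks, against 43.8, 48.9 and 34.7 FPKM in ND and was called higher (log2 fold change 0.44), a call lost without 7w 1 or ND 3. Cd36, the fatty acid and oxidised lipoprotein receptor, had 184, 159 and 169.5 FPKM at 7 weeks, against 94.3, 97.8 and 78.97 FPKM in ND (log2 fold change 0.92, 95% interval 0.74 to 1.09, adjusted p = 2.44e-06). Mfge8, a bridge between phosphatidylserine and integrins, had 36.3, 21.2 and 21.9 FPKM at 7 weeks, against 0, 3.22 and 1.41 FPKM in ND (log2 fold change 3.62).

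Of 20 integrins and adhesion genes, 7 rose and 5 fell, and 2 passed the filter only through 1 group. Itgax had 90.7, 90.1 and 88.6 FPKM at 7 weeks, against 6.27, 5.46 and 6.07 FPKM in ND (log2 fold change 3.71, 95% interval 3.52 to 3.91, adjusted p = 3.64e-11). Itgam, the Cd11b chain, had 83.5, 89.2 and 77.9 FPKM at 7 weeks, against 30.1, 35.9 and 20.2 FPKM in ND (log2 fold change 1.54, 95% interval 1.12 to 1.97, adjusted p = 0.000118). Emb, an immunoglobulin-family protein (log2 fold change 4.71), and Alcam, an adhesion molecule (30.3 FPKM at 7 weeks and 0.431 FPKM in ND), rose, and Pecam1, an adhesion molecule of endothelium and leukocytes, had 13.2, 9.87 and 13.5 FPKM at 7 weeks, against 67.6, 89.8 and 55.8 FPKM in ND (log2 fold change −2.44). Itgb7, the partner of alpha 4, fell (log2 fold change −1.87). Among 16 S100 proteins and annexins, 11 rose and 2 fell. Anxa1, which damps inflammation, had 214, 199 and 196 FPKM at 7 weeks, against 7.69, 2.11 and 3.37 FPKM in ND (log2 fold change 5.37, 95% interval 4.59 to 6.16, adjusted p = 1.29e-05). S100a9, a neutrophil and monocyte protein, had 0, 1.09 and 0 FPKM at 7 weeks, against 51.3, 12.4 and 16.6 FPKM in ND, and ND 1 was far above the other ND libraries. Anxa6 fell by 0.52 on the log2 scale.

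Lipid handling and sterol synthesis rose, and LXR targets did not. Of 20 lipid uptake and storage genes, 12 rose and 4 fell, with a median of 0.56. Fabp5, a fatty acid binding protein, had 149, 145 and 129 FPKM at 7 weeks, against 7.02, 6.96 and 7.27 FPKM in ND (log2 fold change 4.13, 95% interval 3.96 to 4.30, adjusted p = 6.19e-12). Lpl, lipoprotein lipase, had 216, 203 and 208 FPKM at 7 weeks, against 130.1, 155 and 151 FPKM in ND (log2 fold change 0.53). Olr1, the receptor of oxidised lipoprotein, averaged 13.1 FPKM at 7 weeks and 0.0633 FPKM in ND, and the lipases Lipe (log2 fold change −0.51) and Pnpla2 (log2 fold change −0.36) fell. Of 24 cholesterol synthesis genes 15 rose and 1 fell, with a median of 0.60. Sqle, squalene epoxidase, had 31.4, 32.4 and 33.3 FPKM at 7 weeks, against 3.07, 5.87 and 3.23 FPKM in ND (log2 fold change 2.77, 95% interval 2.31 to 3.22, adjusted p = 7.70e-07). Fdft1, squalene synthase, had 17.01, 20.5 and 22.3 FPKM at 7 weeks, against 3.67, 3.29 and 5.21 FPKM in ND (log2 fold change 2.06), and Tm7sf2, a sterol reductase, was the member that fell (log2 fold change −1.15). Of 17 LXR targets and fatty acid synthesis genes, 7 fell and 1 rose. Scd1, the stearoyl-CoA desaturase, had 5.54, 3.16 and 5.77 FPKM at 7 weeks, against 47.7, 50.98 and 42.3 FPKM in ND (log2 fold change −3.07, 95% interval −3.54 to −2.60, adjusted p = 3.97e-07). Apoc1, an apolipoprotein, had 248, 193 and 250.1 FPKM at 7 weeks, against 447, 456 and 474 FPKM in ND and fell; its ND values lie above the upper limit, so no fold is given. Fads2, a desaturase of polyunsaturated fatty acids, had 2.93, 5.204 and 3.23 FPKM at 7 weeks, against 1.17, 0.414 and 0 FPKM in ND. It was the member called higher, and the call was lost without 7w 1, 7w 2, 7w 3, 10w 2, ND 2 or ND 3. The call was also lost with a pseudocount of 0.1, with no filter on low values and without trend and robust settings.

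Lysosomal genes were divided, with 10 of 30 higher and 10 lower. Ctsk, cathepsin K, had 47.2, 44.3 and 30.8 FPKM at 7 weeks, against 0.123, 0 and 0.529 FPKM in ND (log2 fold change 5.10, 95% interval 4.59 to 5.62, adjusted p = 1.20e-08). Gla, alpha-galactosidase, had 55.00, 55.4 and 55.4 FPKM at 7 weeks, against 8.29, 8.27 and 5.49 FPKM in ND (log2 fold change 2.77). Smpd1, the acid sphingomyelinase, fell (log2 fold change −0.66). Of 16 vacuolar proton pump genes, 12 rose and 0 fell, with a median of 0.18. Atp6v0d2, a subunit of the membrane sector, had 52.5, 50.8 and 39.7 FPKM at 7 weeks, against 0.295, 0 and 0.635 FPKM in ND (log2 fold change 5.23, 95% interval 4.75 to 5.71, adjusted p = 4.81e-09). Atp6v0a1 had 102, 84.4 and 86.8 FPKM at 7 weeks, against 43.8, 47.8 and 46.00 FPKM in ND (log2 fold change 0.97). Ctsk and Atp6v0d2 reached 1 FPKM in every 7-week library and in no ND library, so no support is drawn from their p-values. Without trend and robust settings the lower count of lysosomal genes was 6, and the higher count of the pump was 7. Asah1, acid ceramidase (201, 201 and 194 FPKM at 7 weeks, against 196, 201 and 199.5 FPKM in ND), and Hexa, a hexosaminidase (247, 239.8 and 231 FPKM at 7 weeks, against 236, 244 and 243 FPKM in ND), were among the genes with the narrowest interval around 0.

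Most called genes of energy metabolism changed by less than 2-fold. Of 25 glycolysis and hypoxia genes, 18 rose and 4 fell, with a median of 0.34; Egln3, an oxygen-sensing hydroxylase, averaged 3.55 FPKM at 7 weeks and 0.271 FPKM in ND, Pfkm, phosphofructokinase of muscle type, 2.45 FPKM at 7 weeks and 6.97 FPKM in ND, and the glucose transporter Slc2a3 2.88 FPKM at 7 weeks and 8.04 FPKM in ND. Slc2a3 was not called without 7w 1, 7w 2, ND 1 or ND 2, and 2 of the 25 passed the filter only through 1 group. Of 15 pentose phosphate and NADPH genes, 9 rose and 2 fell, including Rpe, an epimerase (log2 fold change 0.68), and Me1, malic enzyme (log2 fold change 0.86), which rose, and the oxidase subunits Rac2 (log2 fold change −0.39) and Ncf1 (log2 fold change −0.39), which fell. Me1 was not called without 7w 1, 7w 2, ND 1 or ND 3. Of 26 nuclear-encoded respiratory chain genes, 16 rose and 1 fell, with a median of 0.14. Cox6c (log2 fold change 0.31) and Cox5b (log2 fold change 0.29), subunits of complex IV, rose and Cox5a of the same complex fell (log2 fold change −0.15). Without trend and robust settings, 9 respiratory genes were higher. Of 22 fatty acid oxidation genes, 6 rose and 5 fell, with Etfa, an electron carrier (log2 fold change 0.44), and Echs1, a hydratase (log2 fold change 0.40), higher, and Ehhadh, a peroxisomal enzyme (log2 fold change −1.62), and the coactivator Ppargc1b (log2 fold change −0.96) lower. These shares were near those of all genes. The rises were 3 without 7w 1, 7w 2 or ND 3, the falls 3 without ND 3, and Ppargc1b was not called without 7w 1, 7w 2 or any ND library.

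Antioxidant genes rose in 12 of 20 cases and fell in 3. Slc7a11 and Nqo1 reached 1 FPKM in every 7-week library and in no ND library, so no support is drawn from their p-values. Slc7a11, the cystine importer, had 18.6, 22.3 and 15.5 FPKM at 7 weeks, against 0.0753, 0 and 0.101 FPKM in ND (log2 fold change 4.21, 95% interval 3.66 to 4.76, adjusted p = 1.04e-07). Nqo1, a quinone reductase under Nrf2, had 13.5, 14.1 and 14.7 FPKM at 7 weeks, against 0, 0 and 0.542 FPKM in ND (log2 fold change 3.71). Keap1, the inhibitor of Nrf2 (log2 fold change −0.39), and Sod1, superoxide dismutase (log2 fold change −0.19), fell, Sod1 not without 7w 2, and Gpx1, glutathione peroxidase, had 312, 299 and 294 FPKM at 7 weeks, against 294, 309 and 311 FPKM in ND and was not called. Iron and heme genes fell in 9 of 20 cases and rose in 3. Hp, haptoglobin, had 97.3, 143 and 77.6 FPKM at 7 weeks, against 27.7, 14.03 and 33.3 FPKM in ND (log2 fold change 2.08). Hpx, the heme carrier hemopexin, had 12.1, 12.5 and 7.71 FPKM at 7 weeks, against 24.1, 20.9 and 32.04 FPKM in ND (log2 fold change −1.18). Fth1, ferritin heavy chain, had 381, 373 and 364 FPKM at 7 weeks, against 329, 347 and 348 FPKM in ND, near the upper limit.

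Ribosomal and proteasome genes rose by less than 2-fold where called. Of 29 cytosolic ribosomal protein genes, 29 rose, with a median of 0.32, and of 23 proteasome genes, 20 rose and 0 fell, with a median of 0.26. Rpsa had 58.7, 53.6 and 48.5 FPKM at 7 weeks, against 34.1, 34.6 and 32.5 FPKM in ND (log2 fold change 0.65) and Rps2 had 51.6, 36.3 and 44.6 FPKM at 7 weeks, against 28.4, 30.1 and 30.1 FPKM in ND (log2 fold change 0.55). Ribosomal protein genes have many near-identical pseudogenes, so their values are uncertain, and Rps2 was not called without 7w 1, 7w 3 or any ND library. Psmd14, a deubiquitinase of the proteasome lid, had 129.6, 127 and 131 FPKM at 7 weeks, against 75.8, 80.7 and 81.4 FPKM in ND (log2 fold change 0.70, 95% interval 0.60 to 0.79, adjusted p = 1.78e-07). Psmb7, a catalytic subunit, had 126, 127 and 121 FPKM at 7 weeks, against 91.3, 87.2 and 89.4 FPKM in ND (log2 fold change 0.48). Of 23 unfolded protein and amino acid stress genes, 11 rose and 1 fell. Psat1, of serine synthesis, had 29.7, 32.7 and 25.3 FPKM at 7 weeks, against 2.67, 4.66 and 2.41 FPKM in ND (log2 fold change 2.86). Asns, asparagine synthetase, had 10.4, 13.03 and 8.16 FPKM at 7 weeks, and ND libraries all listed it at 0. Sesn2, a sestrin, had 32.9, 35.9 and 23.4 FPKM at 7 weeks, against 93.5, 80.8 and 95.7 FPKM in ND (log2 fold change −1.54). Of 14 cytosolic chaperones 7 rose and 0 fell (4 rose without 7w 1), with the near-identical heat shock genes Hspa1b (14.7 FPKM at 7 weeks and 2.47 FPKM in ND) and Hspa1a (28.6 FPKM at 7 weeks and 7.105 FPKM in ND) showing the largest rises.

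**Figure D4:**
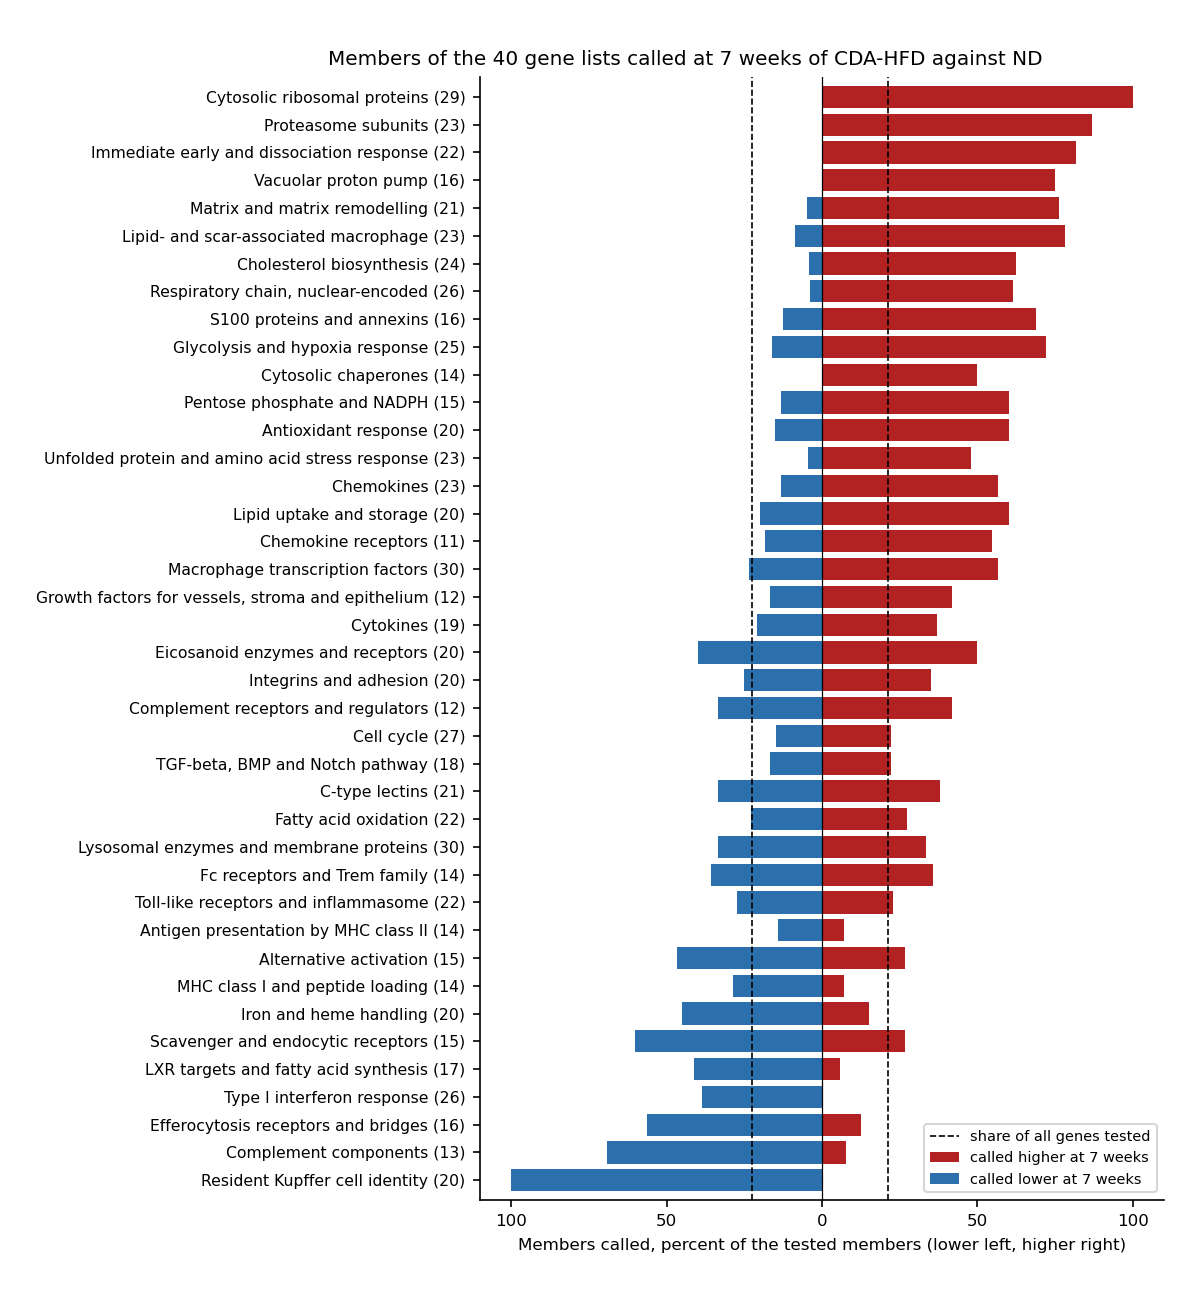
Members of each pathway list called higher (red, right) or lower (blue, left) at 7 weeks of CDA-HFD against ND, in percent of the tested members, whose number stands in parentheses. Dashed lines mark the shares over all genes tested, 21.3% higher and 22.4% lower. The ribosomal list lies wholly on the higher side and the Kupffer identity list wholly on the lower side.

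Few antigen presentation genes were called. Of 14 MHC class II genes, 1 rose and 2 fell. H2-Eb1, a class II beta chain, had 238, 241 and 232 FPKM at 7 weeks, against 205, 213 and 217 FPKM in ND (log2 fold change 0.16, 95% interval 0.10 to 0.22, adjusted p = 0.000944). H2-Ob, a chain of the peptide-exchange inhibitor, had 1.99, 1.84 and 2.21 FPKM at 7 weeks, against 11.6, 7.95 and 10.1 FPKM in ND (log2 fold change −1.84, 95% interval −2.38 to −1.30, adjusted p = 8.76e-05), and Cd86, a costimulatory ligand, fell (log2 fold change −0.44). Of 14 MHC class I and peptide loading genes, 1 rose and 4 fell, with H2-Q7 (log2 fold change 0.69) higher and the transporter Tap2 (log2 fold change −0.35) and H2-T23 (log2 fold change −0.24) lower; H2-Q7 has close paralogs, so its value is uncertain. With quantile normalization 5 class II and 7 class I genes were lower. With trimmed-mean scaling, and also once corrected for the limit, 4 class II and 2 class I genes were higher. Without ND 3, 2 class II genes were higher.

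Interferon-stimulated genes fell in 10 of 26 cases and rose in 0, with a median of −0.34. Without ND 3, 2 rose. Oas2, an antiviral synthetase, had 15.3, 15.2 and 17.2 FPKM at 7 weeks, against 33.97, 33.4 and 46.9 FPKM in ND (log2 fold change −1.20, 95% interval −1.58 to −0.81, adjusted p = 0.000179). Ifit3, an antiviral protein, had 38.6, 33.95 and 44.2 FPKM at 7 weeks, against 73.2, 63.8 and 83.8 FPKM in ND (log2 fold change −0.90, 95% interval −1.16 to −0.65, adjusted p = 6.46e-05). The groups did not overlap in either gene. The 250 bases before the start of Ifit3 (chr19:34583279-34583528, GRCm38.p6, plus strand, RefSeq) are shown for the interferon response element, in capitals. Both matches are on the minus strand, so the capitals read as the reverse complement.
Ifit3: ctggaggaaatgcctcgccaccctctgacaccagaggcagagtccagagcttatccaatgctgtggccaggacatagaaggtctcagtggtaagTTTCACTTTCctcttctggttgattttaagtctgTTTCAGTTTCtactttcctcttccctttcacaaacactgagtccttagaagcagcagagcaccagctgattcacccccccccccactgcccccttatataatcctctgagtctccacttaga
The element, searched on both strands, was in 2.85% of starts of the genes tested. Fewer than 80% of the interferon genes had a start (73.1%), so no share over that list is read.

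Of 27 cell cycle genes, 6 rose, a share near that of all genes, and 4 fell. The falls were 2 without 7w 1 or 7w 2 and 1 without ND 2 or ND 3. Cdkn1a, the p21 inhibitor of division, had 99.3, 107 and 103 FPKM at 7 weeks, against 25.9, 11.5 and 16.98 FPKM in ND (log2 fold change 2.51, 95% interval 2.00 to 3.03, adjusted p = 2.61e-05). Ccnd2, cyclin D2, had 13.3, 17.8 and 17.1 FPKM at 7 weeks, against 2.53, 1.196 and 2.76 FPKM in ND (log2 fold change 2.46), and Ccnd1 (log2 fold change −0.63) and the replication helicase subunit Mcm7 (log2 fold change −0.55) fell. The call was lost for Ccnd1 without 7w 1, 7w 2 or ND 3 and for Mcm7 without 7w 1, ND 1 or ND 2. Of 20 eicosanoid genes, 10 rose and 8 fell. Of these genes 2 passed the filter only through 1 group, among them Ptgs2, whose p-value therefore adds no support. Ptgs2, cyclooxygenase 2, had 26.4, 51.5 and 46.1 FPKM at 7 weeks, against 0.0431, 0 and 0 FPKM in ND (log2 fold change 5.33, 95% interval 4.63 to 6.03, adjusted p = 1.10e-07). Ptgir, the prostacyclin receptor, averaged 8.13 FPKM at 7 weeks and 0.0972 FPKM in ND. Ltc4s, leukotriene C4 synthase, had 34.5, 17.2 and 29.2 FPKM at 7 weeks, against 164, 143 and 150.3 FPKM in ND (log2 fold change −2.51). Of 15 alternative activation genes, 4 rose and 7 fell. Arg1, arginase 1, had 31.7, 31.4 and 43.1 FPKM at 7 weeks, against 10.4, 5.79 and 8.17 FPKM in ND (log2 fold change 2.01). Mrc1, the mannose receptor, had 50.3, 50.6 and 60.1 FPKM at 7 weeks, against 150.1, 160.2 and 146 FPKM in ND (log2 fold change −1.49, 95% interval −1.70 to −1.28, adjusted p = 1.70e-07).

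Some genes were listed at 0 throughout a group. There were 53 listed at 0 in ND with 1 FPKM or more in all libraries at 7 weeks, among them Penk, the enkephalin precursor (14.4, 14.4 and 12.2 FPKM at 7 weeks, and ND libraries all listed it at 0), and AA467197 (15.4, 62.9 and 25.3 FPKM at 7 weeks, and ND libraries all listed it at 0), and 41 listed at 0 at 7 weeks with 1 FPKM or more in ND. Enpp2, autotaxin, was listed at 0 in all 3 libraries at 7 weeks, against 8.45, 8.34 and 7.96 FPKM in ND. Fam3b, a secreted protein, was listed at 0 in all 3 libraries at 7 weeks, against 9.43, 12.5 and 10.99 FPKM in ND. Mup7, a major urinary protein, and Ces2a, a carboxylesterase, both made by hepatocytes, were also listed at 0 at 7 weeks. The highest values in both groups were those of short gene models such as Mir703 (1592 FPKM at 7 weeks and 1103 FPKM in ND) and Mir682 (1256 FPKM at 7 weeks and 867 FPKM in ND), which exceed the upper limit of long genes and are not read as microRNA levels. Among longer genes, Tmsb4x, which binds actin, had 419, 405 and 410.3 FPKM at 7 weeks, against 389, 410.3 and 415 FPKM in ND and was not called. Cd52 had 415, 402 and 401 FPKM at 7 weeks, against 350.1, 362 and 386 FPKM in ND (log2 fold change 0.15). Wfdc17 had 376, 373 and 386 FPKM at 7 weeks, against 444, 473 and 471 FPKM in ND (log2 fold change −0.29). Values of Cd52 and Wfdc17 lay near or above the upper limit, so these folds are uncertain. Both calls were lost once corrected for the limit.

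Markers of other cells were measured in the sort. Monocyte markers rose in 12 of 18 cases and fell in 4, with a median of 2.40 and a summed level of 1414 to 1471 FPKM at 7 weeks and 878 to 942 FPKM in ND. Chil3 and F13a1 of that list passed the filter only through the 7-week libraries. Ly6c2, the Ly6C antigen the gate was low for, had 38.3, 79.8 and 32.05 FPKM at 7 weeks, against 1.42, 1.504 and 0 FPKM in ND (log2 fold change 4.69, 95% interval 3.79 to 5.59, adjusted p = 8.70e-06), and Cd300e of patrolling monocytes had 49.6, 39.1 and 56.3 FPKM at 7 weeks, against 158, 168 and 146 FPKM in ND (log2 fold change −1.70). Hepatocyte markers fell in 14 of 18 cases and rose in 2. Cyp3a11, a drug-metabolising enzyme, had 1.97, 1.98 and 0.1902 FPKM at 7 weeks, against 27.7, 9.93 and 41.96 FPKM in ND (log2 fold change −3.44), uneven in ND, and Ass1, of the urea cycle, had 16.5, 37.97 and 17.3 FPKM at 7 weeks, against 2.19, 2.22 and 0.000376 FPKM in ND (log2 fold change 3.41). Sinusoidal endothelial markers rose in 5 of 15 cases and fell in 4, and Fcgr2b, given above as an Fc receptor, was among the rises. The rises were 1 without 7w 1, 2 without ND 2, and 3 without ND 1 or 10w 1 or once corrected for the limit. Cdh5, the cadherin of vessels, which is also on the Kupffer identity list, had 6.16, 5.57 and 12.04 FPKM at 7 weeks, against 80.97, 80.3 and 81.5 FPKM in ND (log2 fold change −3.27, 95% interval −3.96 to −2.58, adjusted p = 9.17e-06). Clec4g, a sinusoidal lectin, had 77.04, 35.6 and 61.01 FPKM at 7 weeks, against 13.7, 24.2 and 28.1 FPKM in ND (log2 fold change 1.35), and it was not called without 7w 1, 7w 3, 10w 1 or any ND library. B cell markers fell in 3 of 5 cases (71.6 to 84.8 FPKM at 7 weeks and 99.1 to 122 FPKM in ND summed), with Cd79a, of the B cell receptor, at 0.324, 0 and 0.782 FPKM at 7 weeks, against 12.99, 9.61 and 11.05 FPKM in ND. T and NK markers rose in 1 of 9 cases and fell in 3, and neutrophil markers rose in 1 of 6 (2 without ND 1) and fell in 2. The T and NK rise was lost without 7w 1, 7w 3, ND 1 or ND 2, and 1 fell without 7w 1, ND 2 or ND 3. Of the B cell and of the T and NK lists, 2 members each passed the filter only through 1 group. Of 9 tested dendritic cell markers 2 rose and 2 fell, shares near those of all genes. Of 6 tested erythroid and platelet markers 2 rose and 3 fell, and 1 passed the filter only through 1 group. The rises of that list were 1 without 7w 1, 7w 2 or any ND library. Pf4, a platelet chemokine that is also on the chemokine list, had 244, 239.5 and 241 FPKM at 7 weeks, against 105, 95.8 and 104 FPKM in ND (log2 fold change 1.24). The erythroid and platelet list summed to 254 to 257 FPKM at 7 weeks and 142 to 157 FPKM in ND, most of it Pf4. Hba-a1, an alpha globin with a near-identical copy, had 1.23, 0.598 and 6.34 FPKM at 7 weeks, against 22.9, 28.6 and 36.03 FPKM in ND (log2 fold change −3.32). Of 8 eosinophil, mast cell and basophil markers, 3 were tested and 0 called, 3 were listed at 0 in all 6 libraries, and the list summed to 12.7 to 23.95 FPKM at 7 weeks and 15.7 to 21.3 FPKM in ND. The part of these cells in the changes above was not tested.

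**Figure D5:**
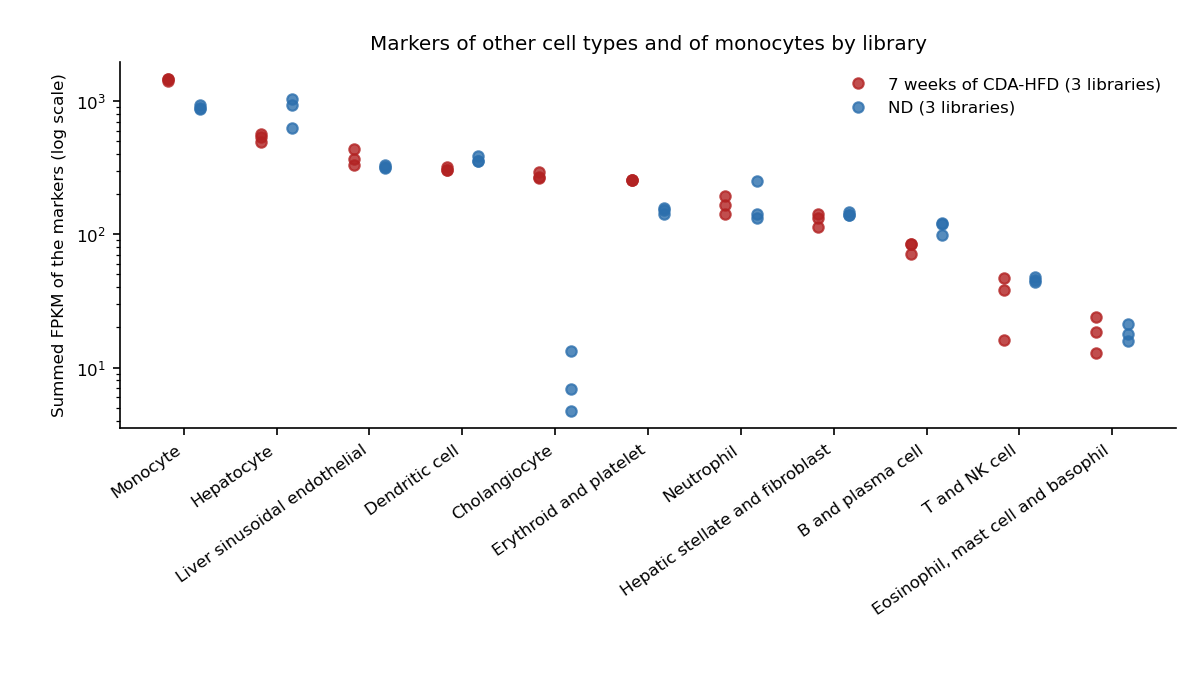
Summed FPKM of the marker lists of other cell types, on a log axis, with 1 point per library, red for 7 weeks of CDA-HFD and blue for ND. Monocyte markers sum to 1414 to 1471 FPKM at 7 weeks and 878 to 942 FPKM in ND. The cholangiocyte sum at 7 weeks is set by Spp1, which is on that list.

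Levels at 10 weeks are given for the leading genes. This comparison shares the ND libraries with the one above, so values are given side by side only. Spp1 averaged 251 FPKM at 10 weeks, Gpnmb 145, Trem2 224, Timd4 4.98 and Clec4f 171. Between 10 and 7 weeks 15 genes were called (0.127%) by limma, 12 higher (0.102%) and 3 lower (0.0255%) at 10 weeks, among them Art2b and H2-Ob, which were closer to ND at 10 weeks.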

How the data were processed

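RNA-seq was performed on Ly6C-low F4/80+ liver macrophages, with 3 libraries per group, grouped by the sample labels. Per the study's methods, cDNA was made with SMART-Seq HT, tagmented with Nextera XT, which does not mark strand, and sequenced as single-end reads of 75 bases, and duplicates were removed with Picard. The submitters' processing notes name Trimmomatic (0.36.0), HISAT2 (2.2.1), featureCounts (2.0.1) and GRCm38. The authors deposited FPKM values in a table of all libraries. The methods speak of TPM, but the column sums differ between libraries, so the values were treated as FPKM. No count model was applied. Of 24776 entries 1 was incomplete and left out, and entries that shared a symbol were summed, which gave 24312 genes.

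Genes with 1 FPKM or more in 3 or more of the 9 libraries entered a linear model of log2(FPKM + 1) with 3 group means, fitted in R (4.3.3) with limma (3.58.1), whose eBayes step used trend and robust. The test was two-sided and p-values were Benjamini-Hochberg adjusted over 11783 genes. The log2 scale with a pseudocount of 1 understates the change of low genes. Each group has 3 libraries. The p-values set a difference against the spread between these animals, estimated from all 9 libraries and moderated across genes. The depth was estimated from steps between low values within a tolerance of 0.1 read, and 66.6% to 71.7% of the low values in the 6 libraries came out whole, so depth is an estimate and covers counting error only. The script was tested on simulated data with known changes. Replicate numbers, transcript filter, pseudocount, normalization, the upper limit and single libraries were varied as alternatives.

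The genes and lists were chosen with earlier results of these data known. Named genes were the 12 largest called rises and falls with a mean of 5 FPKM or more and no overlap, the called members with the 2 largest changes in each direction of each list, genes listed at 0 in a group, the 8 highest genes, genes the study names, and those with the narrowest interval around 0. Cd68, Lyz2, Csf1r and Gapdh were added as checks. Some genes that this rule names are not reported here.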

Additional observations from a re-analysis of the deposited data

Results flagged for a closer look

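Art2b and H2-Ob differed between the 2 times on diet. For Art2b the log2 difference, 10 weeks minus 7 weeks, was 1.65 (adjusted p = 0.0175, limma with Benjamini-Hochberg adjustment), since the gene was at −5.32 at 7 weeks and −3.67 at 10 weeks against ND on the log2 scale. It was called in 14 of 20 alternatives, with adjusted p between 0.0173 and 0.0876. For H2-Ob the difference was 1.53 (adjusted p = 0.0419), with −1.84 at 7 weeks and −0.31 at 10 weeks against ND. It was called in 6 of 20 alternatives, with adjusted p between 0.0415 and 0.176. Both time points share the ND libraries. The log2 difference itself does not use them, but its p-value does, through the shared estimate of the spread. Over all genes, 4 were called between 10 and 7 weeks without ND 1 and 2 without ND 2, in place of 15.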

How the results depend on the processing

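The number of genes called stayed within 1.5 times under all 21 alternatives. Leaving out 1 library gave 4362 to 5284 called genes, 2089 to 2572 higher, 2195 to 2724 lower and 1859 to 1973 with a change of at least 2-fold. With a pseudocount of 5 the number with a 2-fold change was 1029, which that pseudocount lowers by construction. Between 10 and 7 weeks, 5 genes were called with a pseudocount of 0.1 and 2 without trend and robust, in place of 15, and 2 to 18 without 1 library. Of 190 named genes called, 23 lost the call with the sign of the change kept under 1 or more alternatives, and 167 did not. Mir703 and Mir682 lost the call where their sign turned, as given below. Stricter filters left some named genes untested. Of the 23, Cox5a, Fth1, Grn and H2-Eb1 lost the call without trend and robust, Wfdc17 once corrected for the limit and Cd52 under both. Log2 fold changes that turned negative were −0.0028 for Mir703 and −0.0028 for Mir682 once corrected for the limit, which both exceed, so that these 2 values are set by the correction alone, and −0.11 for Mir682 and −0.074 for Atp6ap1 with quantile normalization (adjusted p = 0.0365 for Atp6ap1). The cause was not tested. Replicate numbers are not said to pair the libraries. Same-numbered libraries at 7 weeks and in ND correlated at −0.03, 0.03 and 0.06 in their deviations from group means, and differently numbered ones at −0.07 to 0.05. With 3 libraries per group these values cannot decide whether the numbers pair animals. A replicate block gave 5126 called genes.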
